A study of Mus musculus with 7 samples.

Results

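The widest open regions called in late G1 endothelial cells of the mouse retina were collected as the autosomal rows of the late G1 peak list with a length of 3000 bp or more, a row being 1 region of the list. There were 6240 such rows among 360498 autosomal rows of that list, or 1.73%. They covered 22.9 Mb, which was 6.84% of the bases under autosomal late rows and 0.954% of the sequenced autosomal bases. The 119995 autosomal late rows of 500 to 1000 bp served as the comparison.

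The assay was ATAC-seq, which tags accessible DNA with a transposase, and the tissue was the retina of mice at postnatal day 6 that carried the FUCCI reporter, whose fluorescent proteins report the cell cycle phase. Living cells that carried the endothelial surface protein CD31 and lacked the leukocyte protein CD45 were sorted, per the labels' protocols, into cells without fluorescence, taken as early G1 (3 libraries), and red cells, taken as late G1 (4 libraries). All 7 libraries had the same tissue, age and reporter, and whether each library came from its own animal is not said in the labels. Both lists were called by the authors on pooled libraries, which leaves no error between replicates and no test between groups. Intervals of shares are 95% Clopper-Pearson (exact) intervals; they reflect counting error alone and treat neighbouring rows as independent. The spread over the 19 autosomes is given as an SD, and autosomes are not replicates. Fragments numbered 124693948 in the late pool (mean 236 bp) and 137191808 in the early pool (mean 230 bp). The early list had 606661 rows against 383721 in the late list.

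Accessible DNA in a nucleus is found mainly at promoters, where transcription starts, and at enhancers, where transcription factors bind at a distance from the gene. Very broad stretches of open or active chromatin are known from genes of cell identity, and endothelial identity rests on factors of the ETS, SoxF, GATA and forkhead families together with signals such as VEGF, Notch, BMP and, in the retina, Norrin and Wnt. In a broad peak call, enriched pieces that lie close together are joined into 1 row, so width can reflect several sites as well as 1 long site. Repeated DNA, whose copies are collapsed or hard to tell apart in a reference genome, is another known place of wide signal.

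The reference sequence of the central 240 bp is shown for the widest row of each of 5 endothelial lists not already shown for another list, because these are the rows by which a reader can judge what the middle of such a region holds. The next widest row was taken where those bases held UTR sequence. Positions are on GRCm38 (mm10), and the bases are from the RefSeq copy of that assembly. Capitals mark a match to any of 14 transcription factor words searched (listed with the results on sequence below).
Podxl, chr6:31641500-31641739, + strand: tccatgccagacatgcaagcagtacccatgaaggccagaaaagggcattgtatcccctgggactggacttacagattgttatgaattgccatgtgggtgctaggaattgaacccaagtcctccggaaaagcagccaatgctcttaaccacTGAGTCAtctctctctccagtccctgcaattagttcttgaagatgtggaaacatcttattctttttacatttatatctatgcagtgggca
Cxcr4, chr1:128638744-128638983, + strand: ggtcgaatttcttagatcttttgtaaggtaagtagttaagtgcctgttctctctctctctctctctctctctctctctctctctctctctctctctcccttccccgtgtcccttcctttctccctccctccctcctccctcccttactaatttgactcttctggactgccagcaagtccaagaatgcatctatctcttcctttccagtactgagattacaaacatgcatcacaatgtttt
Selp, chr1:164099663-164099902, + strand: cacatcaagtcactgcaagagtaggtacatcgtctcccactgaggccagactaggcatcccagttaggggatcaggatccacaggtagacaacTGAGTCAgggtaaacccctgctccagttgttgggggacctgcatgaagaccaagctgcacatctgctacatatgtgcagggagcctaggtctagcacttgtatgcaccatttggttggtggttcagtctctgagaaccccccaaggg
Angpt2, chr8:18781063-18781302, + strand: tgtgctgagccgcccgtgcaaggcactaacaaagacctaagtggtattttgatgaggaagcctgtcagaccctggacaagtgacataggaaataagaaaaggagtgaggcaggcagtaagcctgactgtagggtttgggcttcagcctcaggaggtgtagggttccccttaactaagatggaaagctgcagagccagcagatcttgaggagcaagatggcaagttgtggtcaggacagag
Foxq1, chr13:31477002-31477241, + strand: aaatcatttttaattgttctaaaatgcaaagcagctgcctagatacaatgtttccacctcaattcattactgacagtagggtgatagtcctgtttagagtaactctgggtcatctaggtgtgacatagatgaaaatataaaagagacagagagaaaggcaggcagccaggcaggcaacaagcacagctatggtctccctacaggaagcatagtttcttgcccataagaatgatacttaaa
Podxl, coding for the surface sialomucin podocalyxin, stands for the pan-endothelial list, and Cxcr4, the receptor of the chemokine CXCL12, for the arterial list. Selp, coding for P-selectin, stands for the venous list, Angpt2, the ligand angiopoietin 2, for the tip cell list, and Foxq1, a forkhead factor of brain and retinal vessels, for the retinal barrier list. The Podxl and Selp windows each held 1 match to the AP-1 word, and the others held no match to any word. Lower case does not mark repeats here. Repeats masked in the reference made up 32.8% of the Podxl row and 29.9% of the Selp row. Whether the 2 AP-1 matches lie in such repeats was not tested. The Cxcr4 window contained a run of alternating C and T, a simple repeat.

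Since width chose the rows, their width and signal are a description. Their median width was 3454 bp (quartiles 3194 and 3915 bp), and the widest had 11657 bp. Their median pileup, the mean number of fragments over the enriched parts of a row as the authors' caller gave it, was 51.6 (quartiles 33.8 and 77.2) and that of the rows of 500 to 1000 bp was 46.9 (quartiles 26.3 and 96.6). The median fold, the ratio of pileup to the local background, was 3.67 (quartiles 2.70 and 4.79) in wide rows and 3.63 (quartiles 2.24 and 6.86) in the shorter ones. The medians were thus close, and the upper quartile of both measures was lower in the wide rows. The 3 rows just inside the limit, each 3000 bp wide, were nearest to Hdac4 (pileup 48.4, fold 3.18), Mc2r (24.2 and 2.23) and Itga6 (119 and 5.86). The 3 just outside, each 2999 bp wide, were nearest to Rnf130 (48.2 and 3.96), Ednrb (106 and 8.17) and Tcf4 (26.1 and 2.40). The limit cuts a continuous distribution: 840 rows were within 100 bp above it and 1048 within 100 bp below it.

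**Figure D1:**
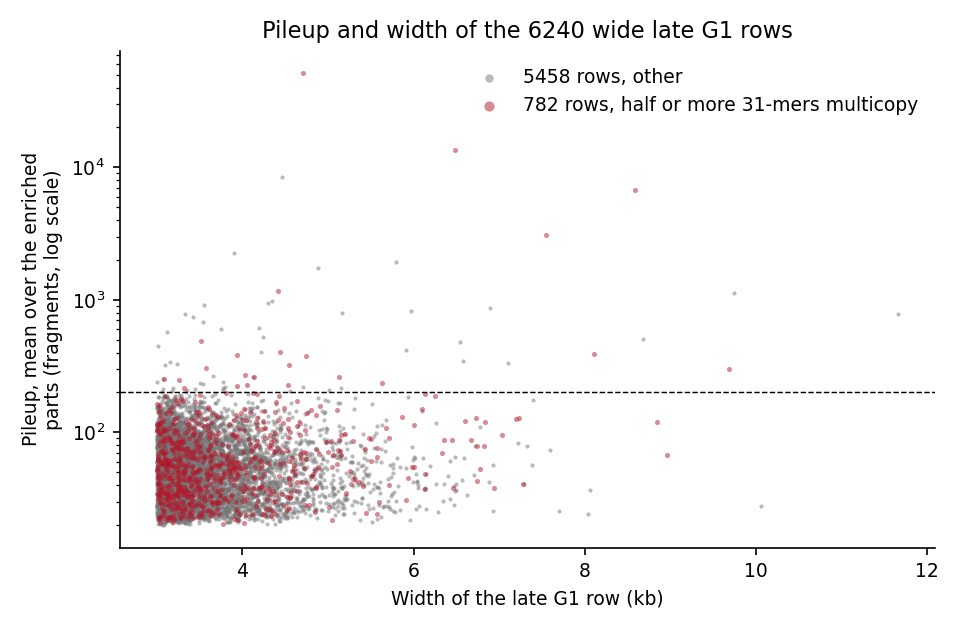
Pileup of each of the 6240 wide late rows (vertical, log scale, fragments) against its width (horizontal, kb); red points are the 782 rows of which at least 50% of the 31-base words occur more than once in the genome. Most rows lie between 3 and 5 kb at pileups under 200 (dashed line), and 73 rows lie above it.

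The shortest distance between neighbouring late rows was 945 bp, just over 4 fragment lengths (944 bp), and that between early rows was 924 bp against 920 bp. No neighbours closer than that stayed apart, so enriched pieces up to that distance are within the same row. Joining late rows across gaps of at most 200 bp therefore changed nothing. From a wide row the next late row was a median of 4434 bp away, and from a row of 500 to 1000 bp it was 4314 bp away. The median gap between neighbouring wide rows was 229 kb, and 470 had another within 20 kb. Their density ran from 2.11 per Mb on chromosome 3 to 3.28 per Mb on chromosome 4.

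Wide rows lay more often at promoters than the shorter rows, although most of their centres were elsewhere. The centre was within 1 kb of a start site of a protein-coding transcript in GENCODE M21 in 312 wide rows (5.0%, interval 4.47 to 5.57, SD over autosomes 1.63). This compares with 3.65% of all autosomal late rows, 3.47% (3.37 to 3.57, SD 0.946) of the rows of 500 to 1000 bp and 2.57% of all sequenced autosomal bases. The share was higher in wide rows on 17 of 19 autosomes, by a mean of 1.57 percentage points (SD 1.29). Among rows of 500 to 1000 bp with a fold between the quartiles of the wide rows the share was 4.06%, which is nearer to, and still below, the interval of the wide rows. Width did not sort promoters further above 2000 bp: the share was 2.96% under 500 bp, 4.30% from 1 to 2 kb, 5.15% from 2 to 3 kb, 5.10% from 3 to 4 kb, 4.65% from 4 to 5 kb and 4.59% (2.53 to 7.58) at 5000 bp or more.

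**Figure D2:**
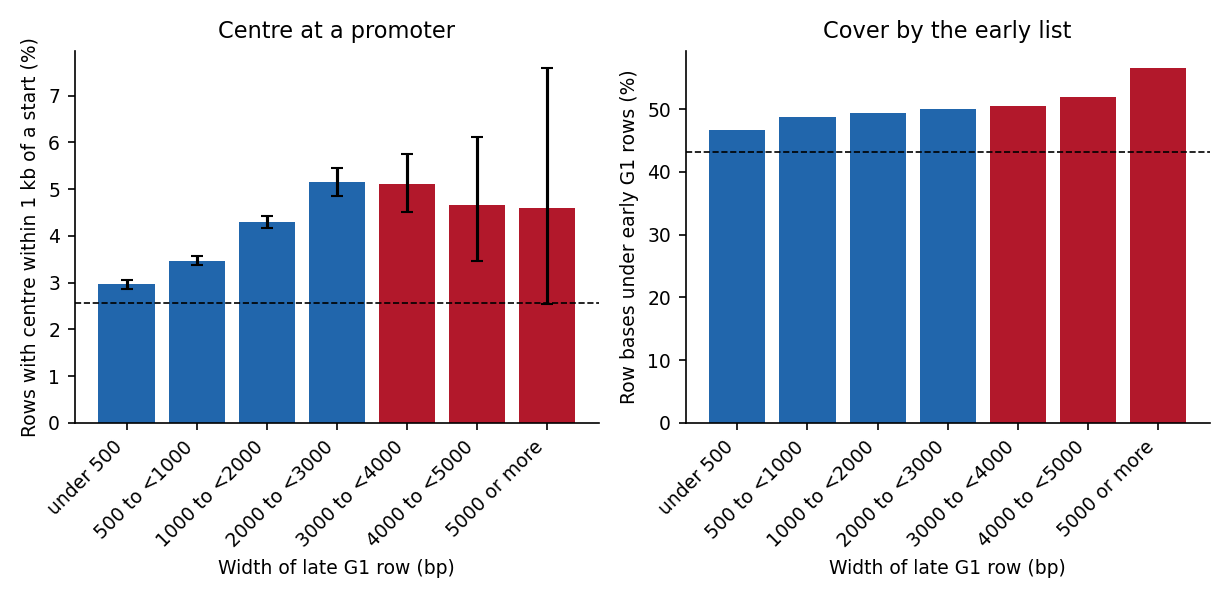
Left, share of late rows in each width class (horizontal, bp) with the centre within 1 kb of a protein-coding start site, with exact 95% intervals; right, share of the bases of those rows under early rows. Red bars are the wide classes and dashed lines the share of all sequenced autosomal bases; the left bars rise to 5.15% from 2 to 3 kb and the right bars rise from 46.7% to 56.5%.

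Most wide rows lay in introns or between genes. Introns of protein-coding genes held 2371 centres (38%, 36.8 to 39.2) against 36.5% of the shorter rows, and 2859 (45.8%, 44.6 to 47.1) were intergenic against 49.8%. Genes that do not code for protein held 454 (7.28%) against 7.08%. Exons of protein-coding genes held 244 (3.91%, 3.44 to 4.42) against 3.23%, of which 105 were in coding sequence, 93 in a UTR and 46 in other exons. The median distance from the centre to the nearest start was 40.3 kb (quartiles 11.02 and 135 kb) in wide rows and 52.2 kb (14.3 and 189 kb) in the shorter rows. Beyond 100 kb lay 30.6% of wide rows and 36.9% of the shorter rows.

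A start site lay inside 518 wide rows (8.30%, 7.63 to 9.01) and inside 1.99% of the shorter rows, a measure that grows with width by itself. Per base, 4.64% of the sequence under wide rows and 3.55% of that under the shorter rows lay within 1 kb of a start. In the 478 wide rows that held the start of 1 gene, the row reached a median of 1705 bp upstream (quartiles 827 and 2520) and 1880 bp downstream (1128 and 2784), and 248 of them (51.9%) reached further downstream. Rows chosen to hold a start reach to both sides of it, so these values are a description. Over 20807 autosomal gene starts, 2.09% lay under a wide row, against a mean of 1.25% at 15 to 20 kb on either side, a ratio of 1.67. For rows of 500 to 1000 bp the values were 8.64% and 3.69%, a ratio of 2.34.

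**Figure D3:**
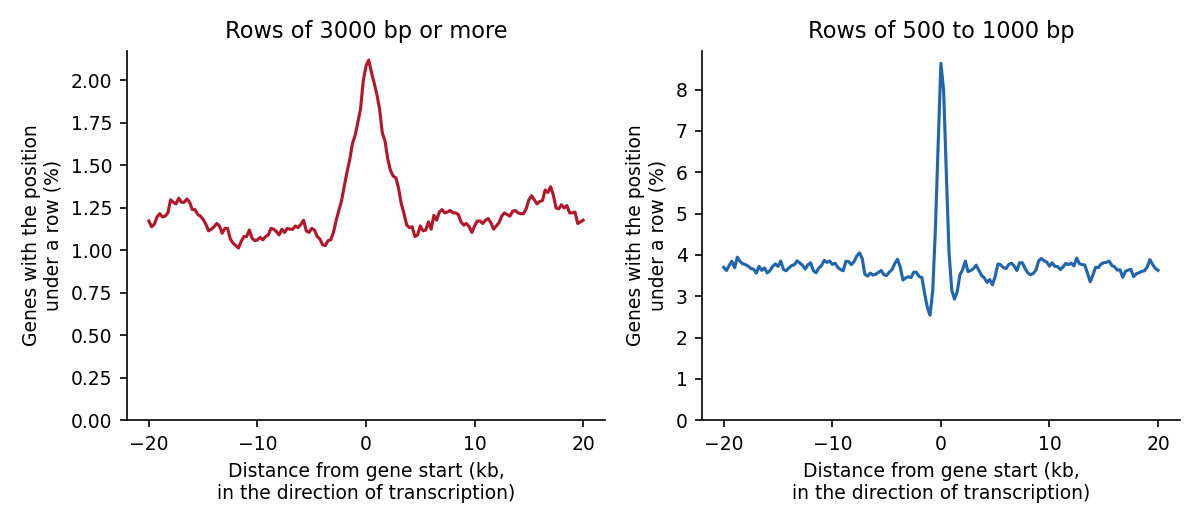
Share of 20807 autosomal protein-coding genes with a given position (horizontal, kb from the gene start in the direction of transcription) under a late row of 3000 bp or more (left) or of 500 to 1000 bp (right); the vertical scales differ. Wide rows peak at 2.12% just downstream of the start and the shorter rows at 8.64% at the start.

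The promoter rows differed in sequence from the other wide rows. Their median GC content was 50.6%, against 44.6% in the 5928 other wide rows, and their median ratio of observed to expected CpG, which is low where CpG has been lost through methylation, was 0.393 against 0.175. Repeats masked in the reference made up a median of 15.7% of a promoter row and 24.5% of the others. Their median pileup was 47.3 and that of the others 51.8, so promoter rows did not carry the larger signal. Early rows covered 57.5% of their bases against 50.9%.

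Nearly every wide late row also met a row of the early G1 list, but about as many of its bases lay outside early rows as inside them. An overlap of at least 1 bp was present in 6064 wide rows (97.2%, 96.7 to 97.6), against 65.9% of the shorter rows and 68.3% of all autosomal late rows; a wider row meets more by its width alone. Per base, early rows covered 51.2% of wide rows, 48.7% of the rows of 500 to 1000 bp and 43.1% of all sequenced autosomal bases. Cover was higher in wide rows than in the shorter rows on 19 of 19 autosomes, by a mean of 2.55 percentage points (SD 1.48), and higher than over all bases by a mean of 8.06 points (SD 1.59). It rose across the classes from 46.7% under 500 bp to 56.5% at 5000 bp or more. Wholly under early rows lay 391 wide rows (6.27%), against 31.7% of the shorter rows, a share that falls with width by itself.

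**Figure D4:**
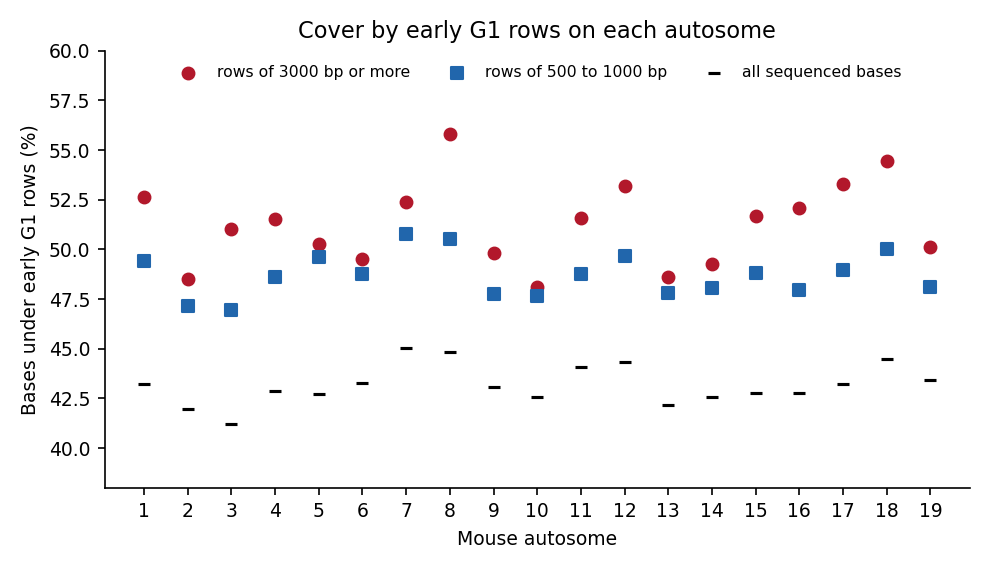
Share of bases under early G1 rows (vertical, %) on each mouse autosome (horizontal) for wide late rows (red circles), late rows of 500 to 1000 bp (blue squares) and all sequenced bases (black dashes); the vertical axis does not start at 0. The red circles lie between 48.1% and 55.8% and above the other marks on each autosome.

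Wide rows were a larger part of the early list, with 101996 autosomal rows of 3000 bp or more, or 17.7% of its 575882 autosomal rows, against 1.73% in the late list. Such an early row overlapped 2559 wide late rows (41.0%), while 2644 early rows of that width (2.59%) met a wide late row. Both shares grow with the width of the rows. Early rows of that width covered 18.4% of autosomal bases and wide late rows 0.954%. The early row with the largest overlap was of that width in 36.9% of wide late rows and 23.6% of the shorter late rows. Late rows that no early row met count in both shares as not of that width. An early row met 97.2% of wide rows and 65.9% of the shorter rows. Among the rows met, the early row of largest overlap had a median width of 2406.5 bp for wide rows and 2261 bp for the shorter ones. With only the early rows whose -log10 q was at least 2.98, cover was 31.4% in wide rows, 27.7% in the shorter rows and 24.1% of all bases, which keeps the order. The early row with the largest overlap had a median fold of 2.09 in both wide and shorter rows, so the early rows under wide late rows were not the stronger ones by that measure.

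No early row met 176 wide late rows. The widest of these was nearest to Paox, which codes for a polyamine oxidase, with 5556 bp, a pileup of 98.4 and a fold of 3.76. The next was 7.69 kb from the start of Rap2b, a small GTPase of the Ras family, with 5296 bp, a pileup of 39.0 and a fold of 2.90. The third, nearest to Serpinb6e, had 5046 bp and a pileup of 22.0, and 99.1% of its 31-base words occurred more than once in the genome. A row of 4987 bp was nearest to Gfra2, the neurturin coreceptor, with a pileup of 88.2 and a fold of 4.76. These 4 rows were picked by width after their values were seen.

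Wide rows were richer in GC than the shorter rows. The median GC content was 44.8% (quartiles 41.5 and 48.4) against 43.4% (39.4 and 47.5), with 41.9% over all sequenced autosomal bases. The median was higher in wide rows on 19 of 19 autosomes, by a mean of 1.40 percentage points (SD 0.581). A longer window averages over more sequence, and the quartiles were closer together in wide rows. The median masked share was 24.1% in wide rows and 22.9% in the shorter rows, both below the 33.5% of all bases.

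Exact words for 14 transcription factor families were searched on both strands in the central 500 bp of each row. In the words N is any base, and a base may belong to matches of several words. The window is at the middle of the row and not at its highest signal. It is a smaller part of a wide row than of a shorter one, and in a wide row it can lie between joined pieces. The shares below are those of wide rows, of rows of 500 to 1000 bp and of all 4791480 sequenced autosomal windows of that length, in that order. The intervals of wide and shorter rows overlapped for 13 words, those of the endothelial families among them. The ETS word CCGGAAGT was found in 0.513% (0.351 to 0.723), 0.379% and 0.316%. For the SOX word ACAATGG the shares were 8.75%, 8.96% and 8.40%. The forkhead word TGTTTAC gave 6.76%, 7.03% and 7.39%, and the GATA word AGATAAG gave 6.31%, 6.95% and 7.27%. The AP-1 word TGANTCA, seen in the Podxl and Selp windows, was in 14.5%, 14.1% and 14.4%. For RBPJ, the Notch effector, GTGGGAA was in 9.87%, 9.28% and 8.74%. The TEAD word GGAATGT gave 7.02%, 6.79% and 6.74%, the E-box CACGTG 5.45%, 5.18% and 4.94%, and the NFY word GCCAATC 4.2%, 3.92% and 3.74%. The MEF2 word CTAAAAATA was in 0.962%, 1.12% and 1.30%, and a word of the insulator protein CTCF in 0.561%, 0.388% and 0.341%. The cyclic AMP response element TGACGTCA was in 0.353%, 0.344% and 0.282%. Either of the E2F words, TTTCGCGC or its variant TTTGGCGC, was in 0.224%, 0.181% and 0.152%. The exception was the SP/KLF word GGGGCGGGG, in 100 wide rows (1.60%, 1.31 to 1.95) against 1.10% (1.04 to 1.16) of the shorter rows and 0.887% of all windows. Its letters are G and C, and the central GC content moved with it (median 45% against 43.2%); among rows with a central GC content of 40 to 50% it was in 1.05% of wide and 0.678% of the shorter rows. Away from promoters its shares were 1.28% and 0.715%. The shares of the other 13 words above are not matched for GC content, and some differ at a central GC content of 40 to 50%. There the AP-1 word was in 16.0% of wide and 14.5% of the shorter rows. The RBPJ word was in 9.63% and 10.2%. These values have no interval.

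How common repeated sequence was in wide rows beside shorter ones depended on the measure, and it gathered in the widest. Rows with at least 50% of their bases masked were 15.1% of wide and 22.7% of the shorter rows. The median share of a row's 31-base words that occur more than once in the genome was 5.55% and 1.96%. With a limit on that share the 2 sets were close. At least 50% of the 31-base words of a row occurred more than once in the genome in 782 wide rows (12.5%), called multicopy here, and in 12.8% of the shorter rows. Among wide rows the multicopy share was 11.4% from 3 to 3.5 kb, 14.9% from 4 to 5 kb and 17.9% from 5 to 6 kb. Of the 87 rows of 6000 bp or more, 31 (35.6%) were multicopy. How the aligner placed reads with several possible positions is not given in the sources used here, so pileups of such rows are uncertain.

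A small group of wide rows had very high pileup, most of them in both lists. A pileup over 200 was found in 73 of the 6240 wide rows, against 4600 of the 119995 rows of 500 to 1000 bp. Among all 360498 autosomal late rows 17959 had it, so it was rarer in wide rows than in both of these sets. The 73 wide rows had a median width of 4121 bp and a median fold of 2.73, against 3.68 in the other wide rows. The early rows that overlapped them had a median pileup of 246, against 28.8 for the other wide rows, and in 53 of the 73 it was over 100; the lowest was 23.4 and the lower quartile 96.8. Early rows covered 80.2% of their bases, against 50.8% of the others. Multicopy sequence was present in 23 of them (31.5%), against 12.3% of the others.

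The highest pileups were at the edge of chromosome 9, in rows that the rule for nearest genes put beside predicted genes. The row at chr9:3000075-3004785, nearest to Gm11168, had a pileup of 51165, a fold of 4.79 and a width of 4711 bp. Rows nearest to Gm10720 (chr9:3012208-3018694) and Gm17535 (chr9:3029675-3038263) had pileups of 13540 and 6747. The first of these 3 rows matched itself in 74.6% of its bases when shifted by 234 bp, against a median of 31.1% over all shifts of 20 to 1000 bp. A unit of 234 bp is the known length of the mouse major satellite, the tandem repeat beside centromeres. Its central 240 bp are shown because they carry that repeat, with the 12-base word that was most frequent in the row in capitals; the word occurs 41 times in the row, and the row was chosen after its pileup was seen.
Gm11168, chr9:3002310-3002549, + strand: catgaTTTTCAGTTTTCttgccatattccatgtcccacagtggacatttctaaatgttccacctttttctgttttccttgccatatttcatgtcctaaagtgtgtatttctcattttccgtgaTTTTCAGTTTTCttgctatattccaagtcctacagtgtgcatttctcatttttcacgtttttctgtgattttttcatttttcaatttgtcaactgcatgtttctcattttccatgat
The third highest pileup, 8491, belonged to the row at chr1:24611658-24616120, nearest to Col19a1, a collagen gene. Of its 31-base words, 98.8% also occur in the mitochondrial genome, and an early row with a pileup of 6807 covered it wholly. A row in an intron of Myo3a, which codes for a myosin, had 49.2% mitochondrial words, a pileup of 327 and an early pileup of 328. The fifth, with 3091, was on chromosome 10 and 154 kb from the start of H60c, its nearest gene. H60c codes for a ligand of an activating receptor of natural killer cells. Masked repeats made up 88.8% of that row, and it was multicopy (81.0% of its 31-base words). Whether fragments from mitochondria or satellite DNA set these pileups was not tested.

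Of the 10 widest rows, 8 had a pileup over 200 or were multicopy. The widest, 11657 bp in an intron of Sfi1, which codes for a centrin-binding protein of the centrosome, had a pileup of 777 at a fold of 1.42, and the early row under it had a pileup of 751. The row nearest to Olfr161, an olfactory receptor gene 355 kb away, had 9742 bp and pileups of 1124 in the late and 805 in the early list. Those nearest to C130026I21Rik (9683 bp), 1700008P02Rik (8956 bp), Gm21119 (8841 bp), Gm17535 (8589 bp) and Apba2 (8112 bp) were multicopy. The row 67.6 kb upstream of Trpm1, the cation channel of retinal bipolar cells, had 8682 bp with pileups of 503 and 375. The other two had lower pileups: the row nearest to Agtpbp1, a tubulin-trimming carboxypeptidase, had 10063 bp and a pileup of 27.6, and that at Arhgef17, a guanine nucleotide exchange factor, had 8058 bp, a pileup of 36.5 and the gene's start inside it.

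The rows of highest fold differed from those of highest pileup, but their widths and early pileups were near those of wide rows in general. Over all wide rows the median width was 3454 bp and the median early pileup 28.8 (quartiles 25.6 and 33.2). A row of 3473 bp nearest to Rab10, a GTPase of vesicle transport, had a fold of 11.05 and a pileup of 139, and its early row had a pileup of 25.5. A row of 3234 bp in an intron of Ddx20, an RNA helicase gene, had a fold of 10.6 and a pileup of 140. The others were nearest to Cdh7, a cadherin gene 669 kb away (fold 10.3), Prkd1, coding for protein kinase D1 (10.2), and Lix1 (10.1). Their early rows had pileups of 22.7, 33.01 and 28.7. Pileups of the lists come from pools of different depth and are not scaled, so they stand side by side here without a ratio.

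Within 100 kb of a start, 4333 wide rows (69.4%) could be assigned to a nearest protein-coding gene, and 1907 could not. They named 3541 of 20780 autosomal genes (17.0%), of which 2931 had 1 wide row and 489 had 2. The genes with the most were C130026I21Rik and Gm21119 with 9 each, Sfi1 with 8 and 4930467E23Rik with 7. In these the rows had pileups of 122 to 299, 78.8 to 129, 88.9 to 943 and 30.8 to 192, and all 9, all 9, 0 and 6 of them were multicopy. Ptprm, an adhesive receptor tyrosine phosphatase with endothelial expression, had 6, spread over 443 kb, with pileups of 31.3 to 110, none of them multicopy. Next came, with 5 rows each, Btbd11, G530012D18Rik, Gm3183, Hrh1, Ptprj, Slc16a14, Zfp978 and Zfp991. Of these, G530012D18Rik, Gm3183 and Zfp991 had multicopy rows only, whereas Hrh1, the histamine H1 receptor, and Ptprj, a receptor phosphatase of vascular cells, had 1 multicopy row each. Hrh1 rows had folds of 3.51 to 6.08 and Ptprj rows 2.56 to 6.14.

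Wide rows were nearest to 25 of 103 autosomal genes of the 5 endothelial lists (24.3%, 16.4 to 33.7), beside the 17.0% of all genes. Endothelial genes have more late rows of any width, however, with a median of 19 per gene against 7. Of the 1855 late rows assigned to them, 27 were wide (1.46%, 0.961 to 2.11), against 1.89% (1.83 to 1.94) over all genes. Both intervals include the value over all genes. With a limit of 2500 bp the share of list genes was above that of all genes, at 56.3% (46.2 to 66.1) beside 30.6%, while the share of their late rows was 4.26% (3.39 to 5.28) beside 4.02%. At 4000 bp the shares were 4.85% beside 4.28% of genes and 0.270% beside 0.423% of rows. Lists of other cells ranged from a median of 4.5 late rows per gene for blood and microglia and 6 for photoreceptors to 17.5 for retinal neurons and for astrocytes, and the 5 endothelial lists from 16 to 21. By list, wide rows were nearest to 9 of 41 pan-endothelial genes, 3 of 19 arterial, 2 of 12 venous, 6 of 19 tip cell and 7 of 19 retinal barrier genes, with some genes in several lists. Most genes of each list had none, Pecam1, Cdh5, Kdr, Tek and Tie1 among them, as did most of all autosomal genes. Counted by gene bodies under the row, 12 list genes (11.7%) were met, beside 12.3% of all genes.

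Most of the 27 rows lay away from the gene start. In 12 the centre was intergenic, in 10 it was in an intron, in 3 in a gene that does not code for protein, in 1 in an exon and in 1 at a promoter. Only 2 rows held a start site, at Igf1r and Fzd4, and 6 met a window of 1 kb around a start. None was multicopy. Their median pileup was 37.8 (22.6 to 193), their median fold 3.15 (2.06 to 6.12), and early rows covered 49.5% of their bases, so their cover was close to that of all wide rows and their pileup and fold were lower at the median.

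Among retinal barrier genes, Foxq1 had the widest row, 7382 bp at chr13:31473432-31480813, centred 79.0 kb upstream of its start, with a pileup of 56.7 and a fold of 3.15. Early rows covered 53.5% of it. Tnfrsf19, a receptor induced by Wnt signalling in barrier vessels, had 2. The wider, 3872 bp and 2.50 kb upstream of its start, had the highest pileup of the endothelial rows, 193, with no early row over it, while the other, 3461 bp in an intron, had a pileup of 39.7 and early cover of 39.3%. It was the only endothelial row without an early row. Axin2, a feedback inhibitor of Wnt signalling, had an intronic row of 3827 bp with a pileup of 110, a fold of 5.20 and early cover of 60.2%. Lef1, the nuclear partner of beta-catenin, had a row of 3002 bp 40.5 kb upstream, with a pileup of 93.7 and complete early cover. Fzd4, the Norrin receptor, had a row of 3483 bp over its start with a pileup of 37.7, a fold of 2.40 and early cover of 43.8%; it also lies in the body of Tmem135. Slc2a1, the glucose transporter GLUT1, had an intronic row of 3391 bp with a pileup of 74.0 and early cover of 13.4%. The row assigned to Cldn5, coding for the tight junction protein claudin 5, was within Cdc45, 16.2 kb away, and had a pileup of 23.4.

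Of the 9 pan-endothelial genes, 6 code for transcription factors, which are common in that list. It also holds factors without a wide row, such as Fli1, Ets1, Elk3, Sox17, Sox18, Klf2 and Klf4. A preference for factors was not tested. Erg, an ETS factor that maintains endothelial identity, had 2 in its introns: that of 3464 bp had the highest fold of the endothelial rows, 6.12, with a pileup of 87.1, and that of 3018 bp had a fold of 4.29 and a pileup of 56.5. Early cover was 33.7% and 50.7%. Tal1, a basic helix-loop-helix factor of blood and endothelium, had a row of 4058 bp in its first kilobases, with a pileup of 33.9 and early cover of 27.7%. Its relative Lyl1 had a row of 3063 bp with a GC content of 58.0% and a pileup of 87.4, centred in an exon and shared with Nfix. Gata2, a GATA factor, had a row of 3414 bp 44.7 kb upstream with a pileup of 73.04. Rows of the ETS gene Ets2 (3407 bp, pileup 32.7) and the SoxF gene Sox7 (3127 bp, 34.5) were intergenic. Podxl (4135 bp, 37.8) and Calcrl, the receptor of adrenomedullin (3593 bp, 29.2), had rows more than 77 kb from their starts.

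Of the arterial genes, Cxcr4, which the tip cell list also holds, had a row of 4191 bp 46.6 kb upstream with a pileup of 103, a fold of 4.08 and early cover of 32.8%. Its ligand Cxcl12 had a row of 4135 bp 64.3 kb upstream with a pileup of 37.3 and early cover of 65.5%. The row nearest to Dll1, a Notch ligand, was 98.4 kb away and had a pileup of 74.3. Both venous rows had low pileup, 25.8 at Selp with complete early cover and 33.9 at Aplnr, the apelin receptor, with 9.99%. In the tip cell list, Angpt2 had a row of 3561 bp in an intron of Mcph1 with a pileup of 30.4 and complete early cover. Plaur, the urokinase receptor, had a row 2.57 kb upstream with a pileup of 45.4. Igf1r, the receptor of insulin-like growth factor 1, had the only promoter-centred row, with a GC content of 67.2%, a pileup of 32.4 and early cover of 93.1%. Rows at Nid1 and Col4a1, genes of basement membrane proteins, had pileups of 22.6 and 32.6 and early cover of 10.6% and 22.8%.

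**Figure D5:**
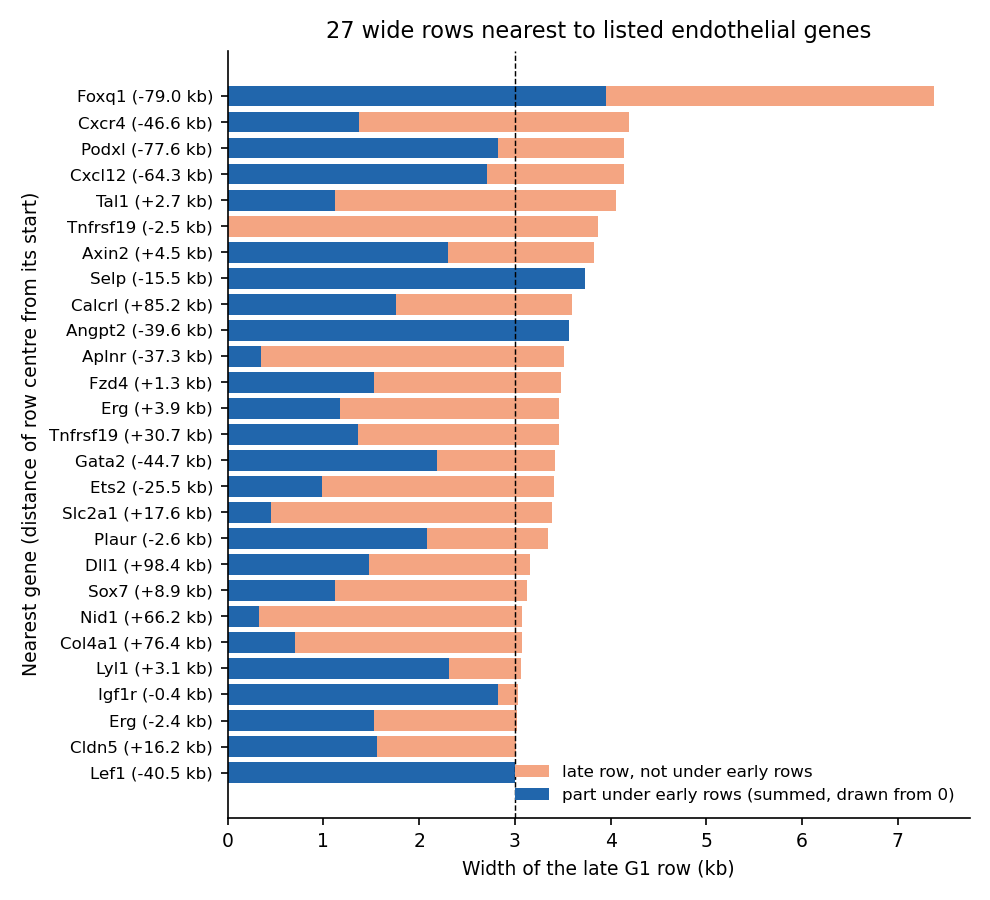
Width (horizontal, kb) of the 27 wide late rows whose nearest gene is in an endothelial list, named with the distance of the row's centre from the gene start (minus is upstream); blue is the summed width under early rows, drawn from 0, and orange the rest. Foxq1 is the widest at 7382 bp, 1 Tnfrsf19 row has no blue, and the other rows lie between 3 and 4.2 kb.

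Genes of several other cell types of the retina and of housekeeping were met at shares whose intervals overlap the 17.0% of all genes. They were 3 of 14 genes of progenitors and Müller glia, 4 of 18 of retinal neurons, 2 of 6 of astrocytes, 2 of 11 of pericytes and smooth muscle, 2 of 10 of blood and microglia, and 2 of 14 housekeeping genes. Of photoreceptor genes, Rcvrn, coding for the photoreceptor protein recoverin, was nearest to a row with a pileup of 130 and a fold of 5.42, and Pde6b, a rod phosphodiesterase gene, to a row over its start with a pileup of 27.4. Pdgfrb, the receptor that marks pericytes, had a promoter-centred row with a pileup of 75.1 and complete early cover. Start sites lay inside wide rows at 2 of 103 endothelial genes (1.94%), beside 2.69% of all genes. What part DNA of other retinal cells had in the late pool was not tested.

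Other rows of these lists had their centres away from promoters. Sox9, a factor of glial and progenitor cells, had a row of 4761 bp with a pileup of 62.4, and Sox2 and Rax, factors of retinal progenitors, had rows with pileups of 23.9 and 21.4. Rows of the neuronal list were nearest to Prkca, a marker of rod bipolar cells (pileup 70.0), Rbpms, a marker of ganglion cells (23.9), and Lhx1, a factor of horizontal cells (65.2). Those of astrocytes were nearest to Aldh1l1 (37.5) and Pdgfra (44.1). The leukocyte genes Cx3cr1, a chemokine receptor of microglia, and Itgam, coding for CD11b, were nearest to rows with pileups of 41.8 and 97.5 although CD45-positive cells were sorted away. Notch3, a receptor of mural cells, had 35.0, and the housekeeping genes Polr2a and Ywhaz had 26.4 and 28.6.

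Pathway genes were met at shares whose intervals include that of all genes. Wide rows were nearest to 6 of 21 genes of TGF-beta, BMP and Notch signalling (28.6%, 11.3 to 52.2). The widest were at Tgfbr3, coding for betaglycan (3754 bp, pileup 49.8, fold 4.12), Rbpj (3725 bp, 44.9 and 3.18), and Ski, a repressor of SMAD signalling (3454 bp, 89.6 and 5.93). Of the G1 control genes, 4 of 21 were met (19.05%, 5.45 to 41.9). E2f3, a transcription factor of entry into S phase, had a row of 4403 bp with a fold of 6.28 and complete early cover. Ccnd2, coding for cyclin D2, had an intronic row of 4360 bp with a fold of 5.34 and early cover of 25.2%, and Ccne1, coding for cyclin E1, had a row of 3686 bp with a fold of 3.41 and early cover of 20.0%. Of the pathway and G1 genes named here, early cover was thus complete at E2f3 and lowest at Ccne1.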

How the data were processed

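The 3 early G1 and 4 late G1 ATAC-seq libraries were grouped by their titles. Trimmomatic, STAR and bedtools on mm10 were used, per the submitters' processing notes. Broad peaks were called by the authors on the pooled fragments of each group, with MACS2 2.2.7.1, no control and duplicates kept, per the file headers. The q-value limits were 0.05 (narrow) and 0.1 (broad), and the background range was 10000 bp. The signal used is the deposited pileup, which is not scaled to depth, and the fold is the deposited ratio, pileup over local background. The -log10 q-value is the deposited column with a damaged heading, identified by column order. Duplicates kept in a pool can raise a pileup, and joining sets widths.

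Overlaps, locations by the centre of a row (promoter, exon, intron, other gene, intergenic, in that order), the nearest protein-coding start within 100 kb, base composition, motif words and copy number of 31-base words on chromosomes 1 to 19, X and Y were computed on GRCm38, which is mm10, with GENCODE M21, with SciPy 1.17.1, pandas 2.3.3, NumPy 2.4.6 and numba 0.67.0 under Python 3.11.15; plots used matplotlib 3.10.9. The interval, motif and word searches were checked on simulated data, with 0 errors. With 1 pooled list per group there was no test. Named rows were the 10 widest, the 5 of highest fold and of highest pileup, 3 on either side of the width limit, the genes with the most rows, every endothelial list gene with a wide row and up to 3 genes of each other list; 1 gene that this rule names is not reported here. The members and lists were chosen with earlier results of these data known. Alternatives changed width, promoter window, start sites, threshold, overlap, assignment and comparison rows. Leaving out multicopy rows was added after the data were seen.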

Additional observations from a re-analysis of the deposited data

Results flagged for a closer look

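Wide late rows also occurred outside the autosomes that the report describes. Chromosome X had 251, or 1.40% of its late rows, with a median pileup of 39.6 and a median fold of 3.09. Chromosome Y had 18, or 0.338% of its late rows, with a median pileup of 51.8 and a median fold of 3.33. Both were noted because these chromosomes enter none of the main comparisons. Chromosome X was added as an alternative only, which gave 6491 wide rows and a promoter share of 4.99%. In the early list 2143 rows on X and 11 on Y were of 3000 bp or more.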

How the results depend on the processing

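Of 34 alternative values, 18 stayed within the error of the value first given. That error was the exact interval for shares of rows. For cover and GC content it was the SD over autosomes, which are not replicates. Numbers of rows and genes had no interval of their own, so their grouping is looser. Some of these numbers could not change. Joining gaps of at most 200 bp joined nothing, as the shortest gap was 945 bp. Leaving out multicopy rows could not lower the number of endothelial genes, as none of their wide rows was multicopy. The number of wide rows was 13484 at a limit of 2500 bp, 1358 at 4000 bp and 305 at 5000 bp. The promoter share of wide rows was 10.6% with a window of 3 kb, 10.1% with any overlap of the row and 10.4% with the starts of all GENCODE transcripts. For rows of 500 to 1000 bp it was 4.13% with any overlap, 4.06% at a fold like that of wide rows and 3.78% without multicopy rows, and 4.30% when rows of 1000 to 2000 bp took their place. Without multicopy rows it was 5.35% in wide rows, so the order held. With only early rows of -log10 q of at least 2.98, cover of wide rows was 31.4% and 66.6% of them were overlapped. At least 50% of the row was covered in 50.7% of wide rows. Endothelial list genes numbered 12 by gene bodies (11.7% beside 12.3% of all genes), 58 at 2500 bp (56.3% beside 30.6%) and 5 at 4000 bp (4.85% beside 4.28%); at 2500 bp alone the interval of the list genes lies above the share of all genes, and per late row it does not. The cause of these shifts was not tested, except that each wider window, stricter threshold or other width limit changes the count by its construction. Leaving out a library was not possible, since each group is 1 pooled list. No paired analysis was possible because the lists carry no replicate. The lowest pileup listed was 19, so weaker open regions cannot be seen.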
